A study of Mus musculus with 54 samples.

Results

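The 200 array features with the highest mean ratio between mouse aorta and embryo RNA are described here, chosen from 20694 features that carried a measured value on all 54 arrays, out of 21446 features in the deposited table. For this choice, exact zeros counted as not measured, and the median of the 20694 features was subtracted from every array. The features were then ordered by their mean over the 54 arrays, so their height is a matter of choice and is given below as a description with no test. Differences between strains, weeks, diets and replicates were not used in the choice, but a high mean leaves little room for values below 0.

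Each array carried total RNA of mouse aorta in one channel and total RNA of mouse embryos at day 17.5 in the other. The 18 groups held 3 arrays each, numbered 1 to 3 in the titles. C57Bl/6 mice (C57) on high-fat diet were taken at weeks 4, 8, 24 and 40, and C57 mice on normal chow at weeks 0, 4, 8, 24 and 40. C3H/HeJ mice (C3H) were taken on the same diets at the same weeks. The titles name week 8 where another label lists week 10, and the titles were followed. All groups share the embryo RNA as their comparison. Age and sex were not given in the sources used here. Nor do the labels say if the 3 arrays of a group hold RNA of different mice, of pooled mice or of one extract, and a p-value therefore measures spread among arrays that may be technical.

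The aorta is an elastic artery, built of smooth muscle layers and elastic fibres under an endothelium and surrounded by connective and fat tissue. Late embryo RNA is a mixture of many growing tissues, so a ratio to it sets a vessel wall against a whole body. C57Bl/6 mice are known to form lesions in the aorta on a high-fat diet, and C3H/HeJ mice are known to resist them.

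A value is the deposited log ratio of the aorta and embryo channels. Its base is likely 10, since values stop at exactly 2 and -2, but the labels state neither the base nor the direction. Signs are those of the deposited table. If the table held embryo over aorta, every sign below would turn, and the 200 features would be those lowest in aorta. No gene names are given to the features. Of the 200 numbers, 172 are listed in the annotation of the platform and 28 are not, but features to which it gives one symbol did not share a level: over 1189 such pairs the mean ratios correlated at -0.0185. Features are therefore given by number, and neither the tissue nor its cell types could be checked against marker genes.

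The arrays correlated with one another across features at 0.487 to 0.966, with a median of 0.839, and their medians before centring lay between -0.0117 and 0.0118. Exact zeros made up 7895 of all deposited values (0.682%), and 71 lay at the cap of 2 or -2. None of the 752 features with a missing value had a mean above the lowest member, the highest at 0.477. Ratios do not show the signal over background, and precision is limited by how many arrays there are.

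The means of the 200 features over 54 arrays ran from 0.609 to 1.88, with a median of 0.759. If the base is 10, these are ratios of 4.07-fold to 76.0-fold, with a median of 5.74-fold. A mean above 1 was found for 30 features, a mean between 0.7 and 1 for 106, and a lower mean for 64. The negative side of the table was fuller, since 714 features had a mean below -0.609.

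Feature 14867 had the highest mean, 1.88 ± 0.181 (SD, n = 54), and its arrays ran from 0.966 through a median of 1.94 to 2.02. It lay at the cap on 18 arrays, so its level there is a lower limit and its spread is understated. It ranked between 1 and 4 in each of the 18 groups. Feature 8957 followed with 1.64 ± 0.164 and feature 9430 with 1.64 ± 0.255. Feature 10470 averaged 1.57 ± 0.189, and feature 21457 averaged 1.55 ± 0.319. These 5 features never ranked below 12 in the mean of a group. The next 5 were features 20555, 21418, 4115, 20179 and 4058, with means of 1.38, 1.35, 1.35, 1.33 and 1.21. Feature 4058 differed from the others of the first 10, with group ranks between 4 and 275. In all, 22 of the member values lay at the cap, in 5 features.

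At the lower end there was no step. Features 10339, 11550 and 17061 were the last inside the limit of 200, with means of 0.612, 0.610 and 0.609. The first outside were features 10597, 17931 and 10402, with means of 0.607, 0.607 and 0.605. Feature 17061 had an SD of 0.310 and is taken up with the strains.

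**Figure D1:**
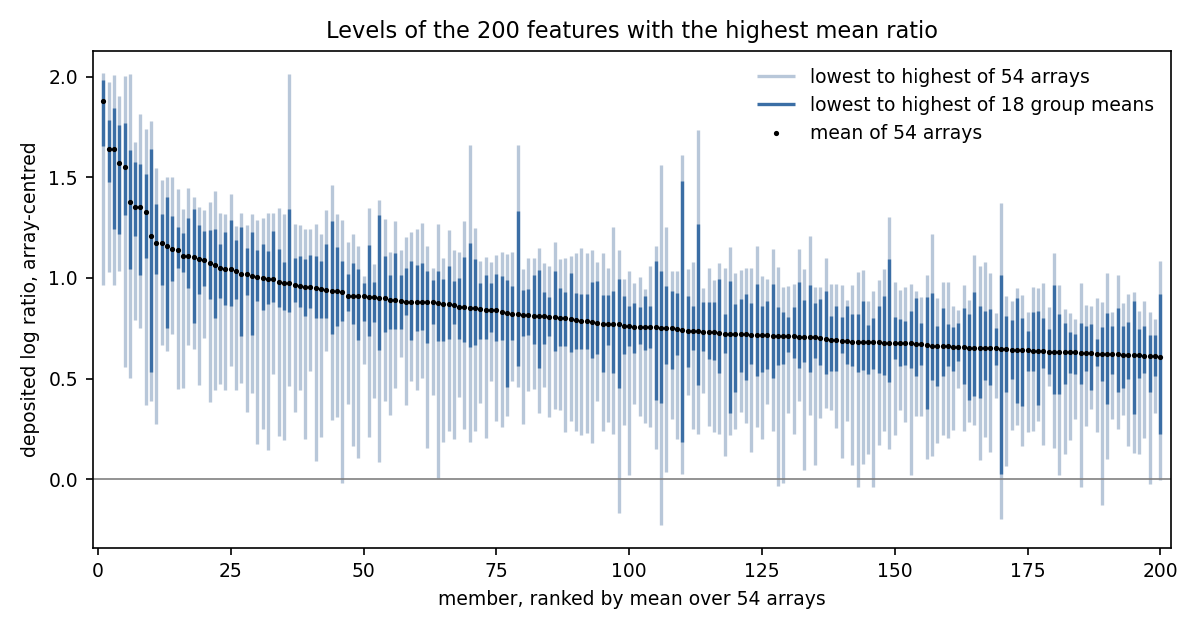
Deposited log ratio, centred per array, of the 200 features in order of their mean over 54 arrays (black points). Dark bars run from the lowest to the highest of 18 group means and pale bars from the lowest to the highest of 54 arrays; 188 pale bars stay above 0, and the long dark bar at rank 110 is feature 10334.

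The positive ratios held their sign over the whole study, which largely follows from choosing high means over these same arrays. On every one of the 54 arrays 188 of the 200 features lay above 0. Of 10800 single values 15 were negative, in 12 features, and 9 of the 15 were on one array, C57 high-fat replicate 3 at week 40. None of the 3600 group means was below 0.

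The order of the features moved more than their sign. In each of the 18 groups 101 features were among that group's own 200 highest, and 185 stayed within the first 500 in all of them. Of the first 25 by mean, 24 were among the 200 highest in all groups. On single arrays 13 features were among the 200 highest on all 54, and 17 were among the 200 highest in fewer than 9 groups. The means of any pair of groups correlated over the 200 features at 0.611 to 0.970, with a median of 0.801. The groups share the embryo RNA and one choice of features, so these correlations are a description.

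As a description, 200 features were also chosen on one set of arrays and read on another. All arrays share the embryo RNA, so the sets are not independent. The 200 highest on the arrays numbered 1 and 2 had a median mean of 0.632 on the arrays numbered 3, against 0.832 on the arrays that chose them. All 200 were above 0 there, and 158 were again among the 200 highest. The 200 highest on the arrays numbered 3 had a median of 0.827 on numbers 1 and 2, against 0.653 on the arrays that chose them. The 200 highest in C57 had a median of 0.747 in C57 and 0.787 in C3H, where 199 were above 0. The 200 highest in C3H had a median of 0.734 in C57, where 198 were above 0, and 0.800 in C3H, and both lists held 164 features. The 200 highest on high-fat diet and the 200 highest on chow each had a median of 0.762 on high-fat diet and 0.769 on chow, with all above 0 on either diet and 183 in both lists.

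The SD over the 54 arrays had a median of 0.174 for the 200 features, against 0.0878 for all 20694. The 200 features with the lowest means had a median SD of 0.186, so both ends of the table varied more than its middle. Relative to the mean, the SD of the 200 features had a median of 21.8%. Most of this was spread among arrays of one group. The SD within groups had a median of 0.174, against 0.0872 for all features. The range of the 18 group means had a median of 0.321 for the 200 features and 0.173 for all features, was under 0.3 for 86 and above 0.5 for 29.

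The steadiest feature was 9345, with a mean of 0.908 ± 0.0766 (SD, n = 54). Its arrays ran from 0.572 through a median of 0.919 to 1.01, and its group means from 0.785 to 0.973. Feature 7831 averaged 0.656 ± 0.0842 and feature 15611 averaged 0.634 ± 0.0859. Feature 10334 had the largest SD, 0.539, and feature 4058 the third largest, 0.332; both are taken up with the strains and diets. Feature 12818, with an SD of 0.360, moved between single groups instead. At week 4 on high-fat diet it stood at 0.834, 1.10 and 1.11 in C57 and at -0.168, 0.191 and 0.0574 in C3H. Its C57 chow arrays of the same week read -0.199, 0.935 and 1.10, so arrays of one group lay as far apart as those groups. No comparison below called it.

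**Figure D2:**
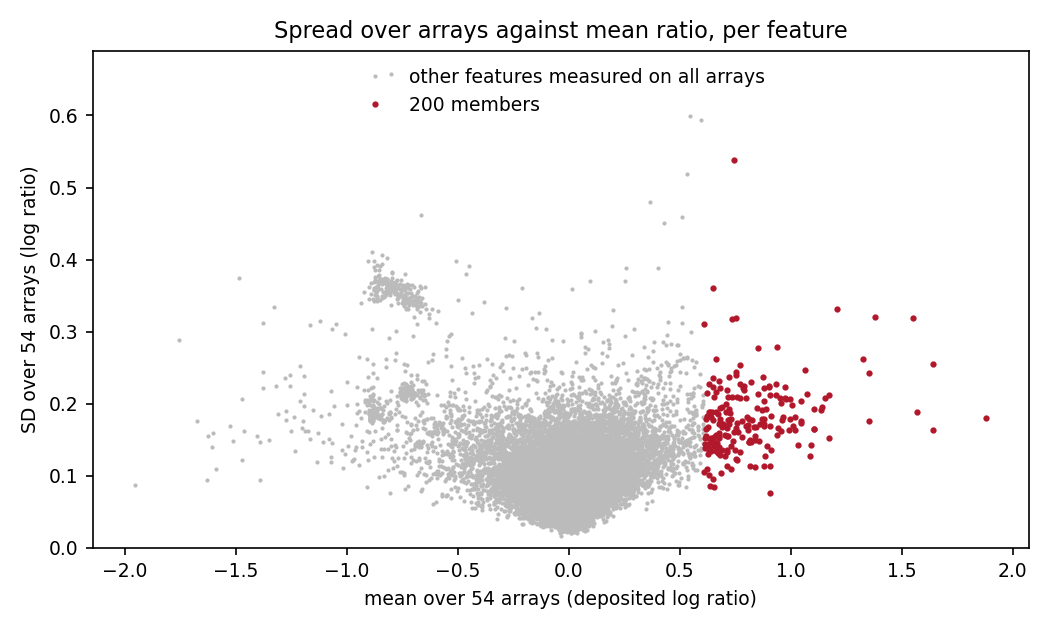
SD over 54 arrays against mean over 54 arrays for each feature measured on all arrays, both in deposited log ratio units, with the 200 features in red and the others in grey. The SD is smallest near a mean of 0 and the red points have a median SD of 0.174, against 0.0878 for all features; feature 10334 is the red point at 0.539.

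Among strain, week, diet and replicate number, the number went with the largest share of this spread. It held a median of 40.9% of a member's sum of squares, against 24.1% over all features and 8.30% over the 200 features with the lowest means. Strain held a median of 3.71%, week 4.23% and diet 0.792%, against 2.67%, 4.75% and 0.952% over all features. The number held over 50% in 67 members, strain in 5, week in 1 and diet in 0. These counts were not taken over all features, but high shares of the number were common there too. The upper quartile of that share was 48.1% over all features and 56.8% in the members.

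The arrays numbered 3 had lower member ratios. The median of the 200 features on an array was 0.742 to 0.968 on arrays numbered 1, 0.756 to 1.002 on arrays numbered 2 and 0.347 to 0.794 on arrays numbered 3. Number 3 was the lowest of the 3 arrays in 18 of 18 groups. Of the 200 features, 187 had their lowest mean on the arrays numbered 3. This count was not taken over all features and alone does not set the members apart from them. The labels do not say what the number stands for. The SD of all features outside both ends had medians of 0.227, 0.234 and 0.231 on arrays numbered 1, 2 and 3, and the 200 lowest features had medians of -0.891, -0.908 and -1.02. The number is balanced over the 18 groups.

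The array with the lowest member median was C57 high-fat replicate 3 at week 40, at 0.347, while replicates 1 and 2 of that group stood at 0.920 and 0.950. Only 32 of the 200 features were among its own 200 highest, against 120 to 178 on each of the other arrays. Its spread over the other features, 0.238, was near the median array. C57 chow replicate 3 at week 4, at 0.457, came next, and there the spread over the other features, 0.133, was the smallest of the study. Across the 54 arrays the member median followed that spread with a Pearson r of 0.397 and a Spearman rho of 0.392, and r was 0.292 without the 2 arrays of most extreme spread. Within numbers 1, 2 and 3 the r was 0.720, 0.428 and 0.524, and 0.576, 0.593 and 0.193 without the 2 arrays of most extreme spread in each. These are descriptions over arrays that share their strain, diet and number.

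**Figure D3:**
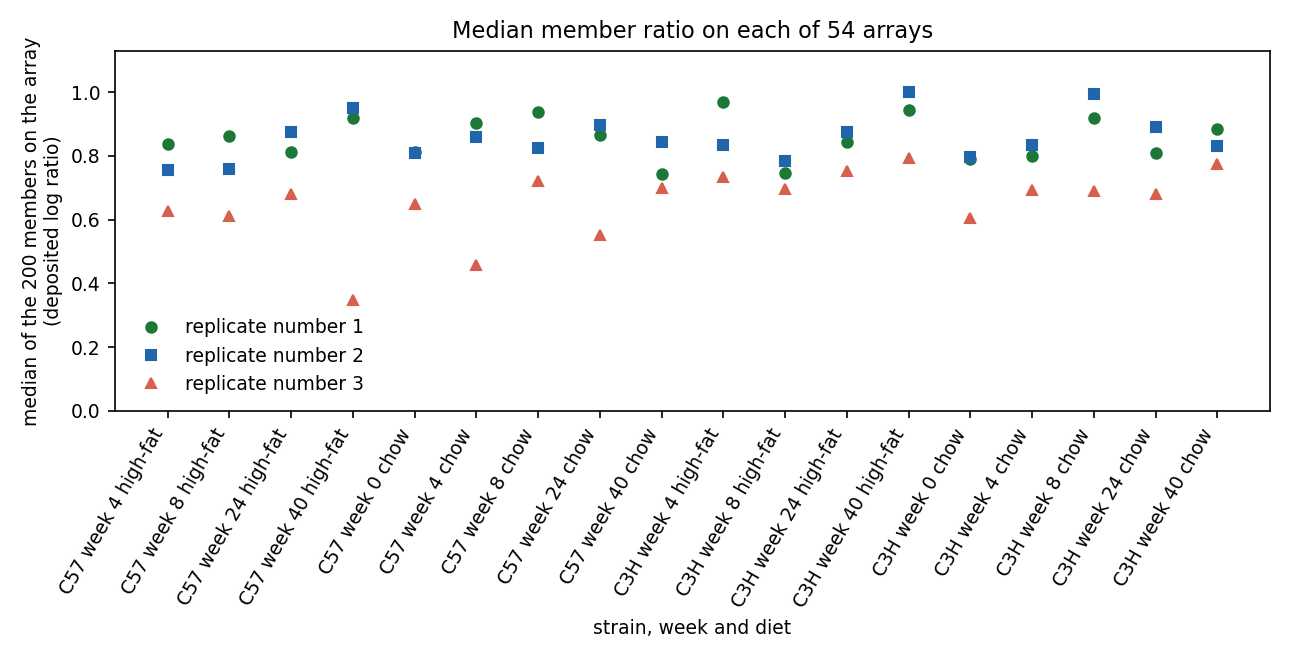
Median deposited log ratio of the 200 features on each of 54 arrays, by group of strain, week and diet, with circles for replicate number 1, squares for 2 and triangles for 3. The triangle is the lowest mark in each of the 18 groups, and the lowest of all is C57 week 40 high-fat at 0.347.

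The 200 features moved together from array to array. The correlation of a pair over the 54 arrays had a median of 0.574 and was above 0 in 93.8% of 19900 pairs. Among 1000 features drawn from all measured features the median was -0.0014. The 200 features with the lowest means were not compared in this way. One component held 52.3% of the members' variance, and 169 members correlated above 0.5 with the member median. Setting all arrays to one spread left the median at 0.566. Features 12818 and 21897 were the members whose correlation with the member median was below 0. These pairs share arrays, the replicate number and the embryo RNA. The features most like feature 14867 over the 54 arrays, among all measured features, were 15002, 18543 and 6660, with r of 0.875, 0.869 and 0.856. All 3 were members, with means of 0.999, 0.713 and 0.622.

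Some members carried nearly the same value on every array. Features 1861, 4017, 15629 and 21342 correlated with one another at 0.990 to 0.999, with means of 0.786 to 0.799. Features 20427 and 10931 correlated at 0.990, with means of 0.717 and 0.713. These sets were picked out after their values were seen, and their numbers lie far apart. Of their 7 pairs the annotation named both features in 3, each time by different symbols. The members were spread over the numbers of the table, with 12 to 26 in 9 of 10 equal stretches of numbers. The stretch from 9031 to 11287 held 36, which is 18% of the members and 10.1% of the measured features.

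The strain comparison asked whether C57 and C3H aortas differed, averaged over the 5 chow weeks and over the 4 high-fat weeks. On chow, limma called 18 of the 200 features at an adjusted p under 0.05, 9 higher and 9 lower in C57, which is 9% where 6.96% of all 21179 tested features were called, 3.88% higher and 3.09% lower. On high-fat diet it called 27, 8 higher and 19 lower in C57, or 13.5% where 11% of all features were called, 4.72% higher and 6.31% lower. The median difference of the 200 features, C57 minus C3H, was -0.0272 on chow and -0.0804 on high-fat diet, against -0.0046 and -0.0042 over all features. With all arrays set to one spread these medians were 0.0938 and 0.0107, and with quantile normalization 0.0188 and -0.0295, so the list has no settled direction between the strains. The split of higher and lower calls moved as well. At one spread 23 members were called higher and 7 lower in C57 on chow, where 3.98% and 3.67% of all features were, and 15 and 5 on high-fat diet, where 4.07% and 5.29% were. After quantile normalization 20 were called higher and 15 lower on chow, beside 4.36% and 3.39% of all features, and 15 and 22 on high-fat diet, beside 5.86% and 5.14%.

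Both diets called 10 features (5%), where 4.09% of all features were called on both. All 10 had one direction on both diets, 5 higher and 5 lower in C57, and they are 55.6% of the chow calls and 37.0% of the high-fat calls. At least 1 diet called 35 features (17.5%), where 13.9% of all features were so called, and 165 were called on neither. On the arrays numbered 1 and 2 alone, 34 features were called on chow and 50 on high-fat diet, where 9.47% and 11.9% of all features were called. The arrays of one strain, diet and number are called a run here, a grouping made for the fit that no label names. With the 12 runs as a random block, 4 and 6 were called, beside 1.3% and 1.81% of all features. Features 2647, 10334, 17061 and 21897 were called under that block on both diets and features 1009 and 8837 on high-fat diet, so the calls of the other named features described below did not pass there.

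**Figure D4:**
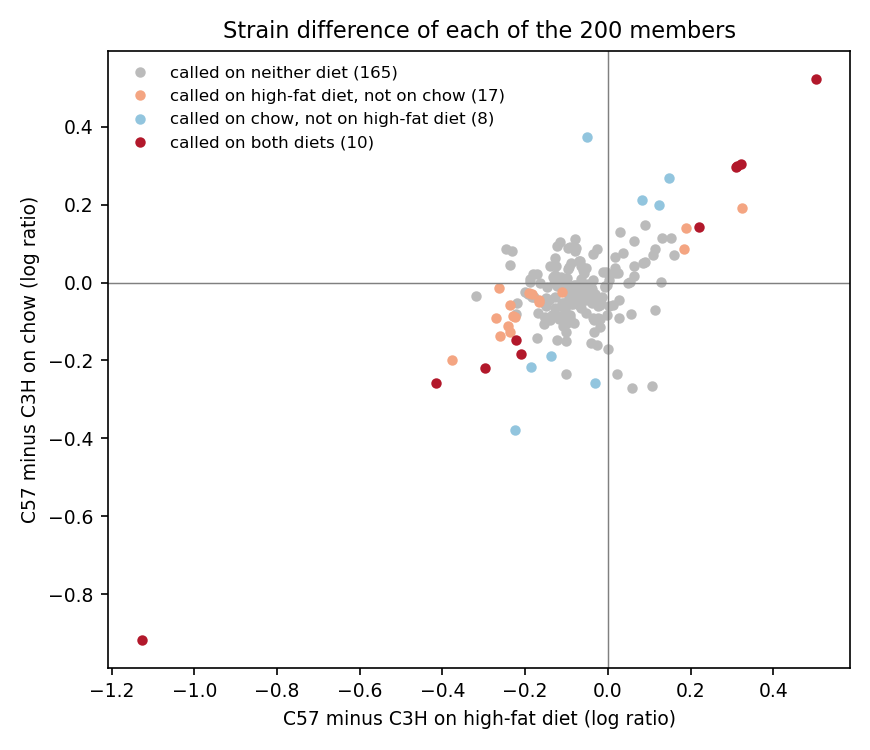
Difference C57 minus C3H of each of the 200 features, on high-fat diet (x) against chow (y), both in deposited log ratio units, coloured by where limma called it at an adjusted p under 0.05. Most points lie near 0; feature 10334 stands alone at lower left and feature 17061 at upper right.

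Feature 10334 differed most between the strains. On high-fat diet it ran from 0.0644 through a median of 0.243 to 0.432 on the 12 C57 arrays, against 1.04, 1.42 and 1.61 on the 12 C3H arrays. On chow it ran from 0.0270 through a median of 0.216 to 0.394 on the 15 C57 arrays, against 0.789, 1.16 and 1.56 on the 15 C3H arrays. No C57 array reached the lowest C3H array. On high-fat diet the difference was -1.13 (SE 0.0686, limma adjusted p 7.52e-16) and -0.917 on chow (SE 0.0613, adjusted p 9.36e-15). It lay between -1.23 and -0.81 in the 9 conditions and was -0.91, -1.03 and -1.10 within numbers 1, 2 and 3. Its rank in a group mean went as high as 9, in C3H, and as low as 2188, in C57. Its C57 means, 0.250 on high-fat diet and 0.229 on chow, lay below the limit of the list. It was the only member whose 27 C57 and 27 C3H arrays did not overlap, against 0.246% of all features.

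Feature 17061 had the opposite pattern. On high-fat diet its C57 arrays ran from 0.589 through 0.936 to 1.09, against 0.130, 0.387 and 0.644 in C3H. On chow they ran from 0.382 through 0.890 to 1.05 in C57, against -0.0037, 0.376 and 0.516 in C3H. The strains overlapped in their outer arrays on both diets. It was the last member inside the limit of 0.609, and its C3H medians lay below that limit on both diets. Its place on the list therefore rests on its C57 arrays. It was higher in C57 by 0.503 on high-fat diet (SE 0.0771, adjusted p 7.73e-06) and by 0.523 on chow (SE 0.0689, adjusted p 4.29e-07, limma). Within numbers 1, 2 and 3 the difference was 0.54, 0.54 and 0.46.

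Features 1009 and 21897 were also higher in C57 on both diets. Feature 1009 averaged 1.34 ± 0.0863 in C57 and 1.02 ± 0.225 in C3H on high-fat diet (SD, n = 12 each). On chow it averaged 1.29 ± 0.109 in C57 and 0.984 ± 0.102 in C3H (SD, n = 15 each). The differences were 0.321 and 0.306, with limma adjusted p-values of 2.35e-06 and 6.41e-07. Feature 21897 was higher in C57 by 0.312 on high-fat diet and by 0.301 on chow, with adjusted p-values of 1.68e-07 and 2.27e-08. Its 12 C57 arrays on high-fat diet ran from 0.722 to 0.947 and the 12 C3H arrays from 0.342 to 0.692, without overlap. Feature 2647 gave nearly the same differences as feature 1009, 0.310 and 0.296, and is named here after its values were seen.

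Among the features lower in C57, feature 8837 was called on both diets. On high-fat diet it ran from 0.218 through 0.544 to 0.671 in C57, against 0.813, 0.906 and 1.15 in C3H, without overlap. The difference was -0.415 on high-fat diet (adjusted p 3.67e-06) and -0.257 on chow (adjusted p 0.00113, limma). On chow the strains overlapped, and at week 0 the difference was -0.02. Feature 13226 was lower in C57 too, with differences of -0.296 on high-fat diet and -0.220 on chow and limma adjusted p-values of 0.00456 and 0.0259. Its high-fat call was also lost when arrays were set to one spread.

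The other named features were called on 1 diet. Feature 10138 was higher in C57 by 0.325 on high-fat diet (adjusted p 0.00229) and feature 2583 lower, with a difference of -0.378 there (adjusted p 4.48e-04). Their chow differences were 0.192 and -0.199, with limma adjusted p-values of 0.0744 and 0.0654. Feature 2583 reached -0.168 on C57 high-fat replicate 3 at week 40, and without that array its difference was -0.300. On chow feature 5064 differed by -0.379 (adjusted p 0.0108) and feature 10441 by -0.259 (adjusted p 0.0222), against -0.224 and -0.0321 on high-fat diet. The call of feature 5064 was lost in 3 of 40 alternatives and that of feature 10441 in 7 of 40. For feature 10441 leaving out C57 chow replicate 3 at week 4 or 24, or replicate 1 at week 40, was enough. Feature 4058 was higher in C57 on chow by 0.373 (adjusted p 0.00149), and its difference was 0.75 at week 0 and 0.08 to 0.38 at the later weeks. On high-fat diet it was -0.0503, with an adjusted p of 0.789 (limma).

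A strain by diet interaction was called for none of the 200 features by limma, so no strain difference is shown to depend on diet. Of all features 0.0189% were called, and 10 members, or 5%, had an unadjusted p under 0.05, where 8.38% of all features did. The lowest adjusted p among the members was 0.435 in this fit. The count at an unadjusted p under 0.05 depended on the fit. It was 56 with replicate number as a block, 46 after quantile normalization and 44 on numbers 1 and 2 alone. At one spread it was 20, and with runs as a random block 0. None of these fits called a member, and their shares over all features at that unadjusted p are not given here.

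The diet comparison set high-fat diet against chow over weeks 4, 8, 24 and 40 within each strain. In C57 limma called 0 of the 200 features, where 0.0472% of all features were called. The differences ran from -0.161 to 0.184 with a median SE of 0.0687, and 10 members (5%) had an unadjusted p under 0.05, where 4.98% of all features did. The median difference was -0.0291, against 0.0016 over all features, and -0.115 with all arrays set to one spread. That count of 10 was 51 with replicate number as a block, 55 after quantile normalization and 65 at one spread. On numbers 1 and 2 alone it was 35, and with runs as a random block 0. The shares over all features for these counts are not given here. Of these fits only quantile normalization called a member, 1, where 0.198% of all features were called. In C3H limma called 3, which is 1.5% where 0.529% of all features were called. Of these 2 were higher on high-fat diet, as were 0.467% of all features, and 1 was lower, as were 0.0614%. The median difference in C3H was 0.0139, against 0.0014 over all features, and 170 of the 200 features differed by less than 0.1.

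Feature 4058 was the largest of the 3 in C3H. On its 12 high-fat arrays it ran from 0.743 through a median of 1.499 to 1.78, against 0.680, 0.942 and 1.28 on the 12 chow arrays of the same weeks. The groups overlapped, and the low end of the high-fat group was replicate 1 of week 8. The difference was 0.506 (SE 0.0908, limma adjusted p 0.00346), with 0.73, 0.43, 0.37 and 0.49 at weeks 4, 8, 24 and 40. Within numbers 1, 2 and 3 it was 0.272, 0.573 and 0.674. In C57 the difference was 0.178 (adjusted p 0.974). At week 0 the C3H arrays stood at 0.746, 0.459 and 0.387, the lowest group mean of this feature.

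Feature 12451 averaged 0.912 ± 0.150 on high-fat diet and 0.639 ± 0.106 on chow in C3H (SD, n = 12 each), a difference of 0.273 (SE 0.0520, adjusted p 0.00694, limma). The arrays overlapped, and within numbers 1, 2 and 3 the difference was 0.0710, 0.313 and 0.436. In C57 it was 0.135 (adjusted p 0.851). Feature 11166 was lower on high-fat diet in C3H, at 0.579 ± 0.0973 against 0.925 ± 0.233 on chow. The difference was -0.346 (SE 0.0658, adjusted p 0.00694), with -0.31, -0.53 and -0.52 at weeks 4, 8 and 24 and -0.03 at week 40. Within numbers 1, 2 and 3 it was -0.330, -0.430 and -0.280. Features 4058 and 12451 were no longer called at one spread, in numbers 1 and 2 alone or with runs as a random block, feature 4058 also not in a fit of the arrays of the contrast alone, and feature 11166 was not called with runs as a random block.

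**Figure D5:**
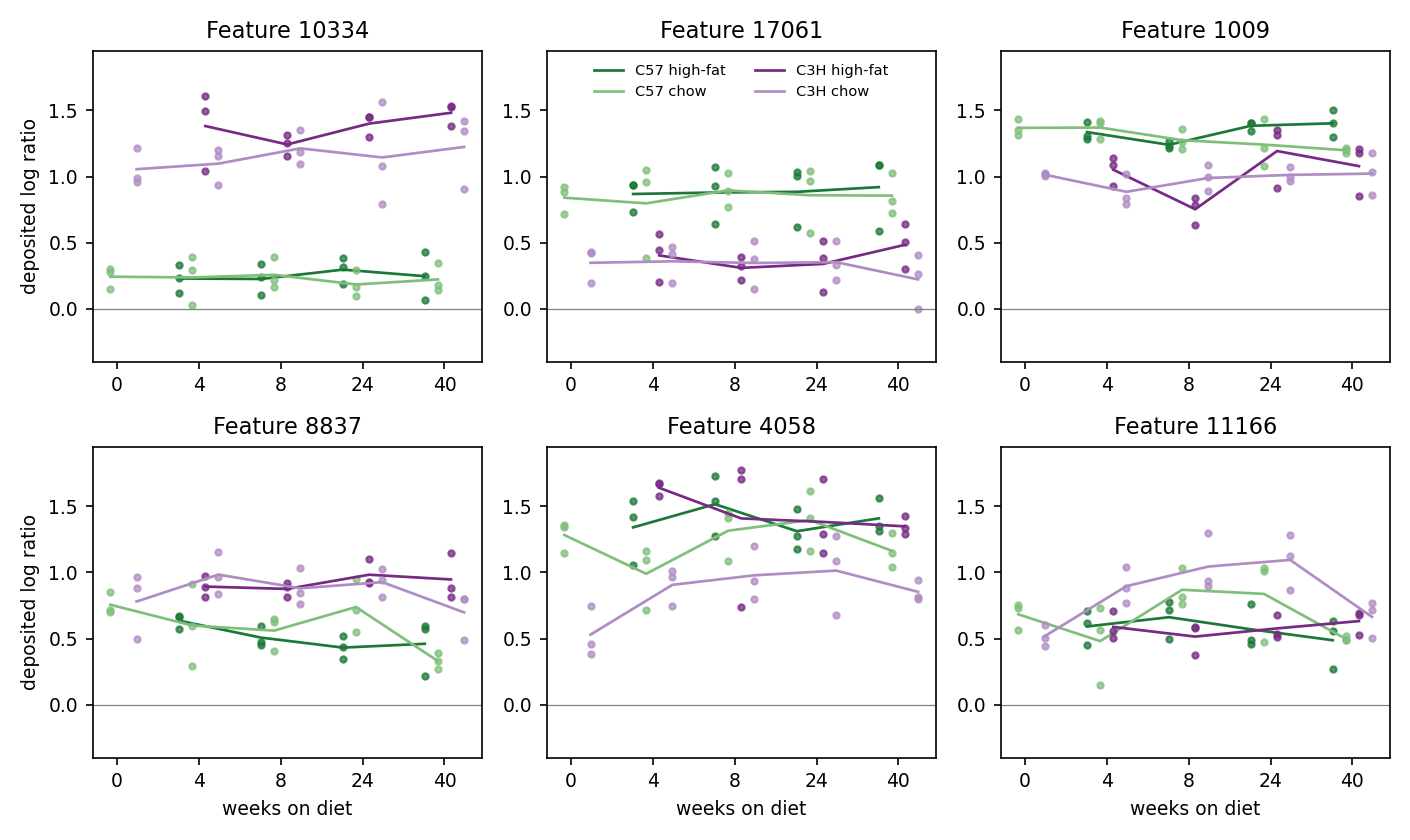
Deposited log ratio of 6 of the 200 features on each of 54 arrays (points) and the mean of each group of 3 (lines), by weeks on diet at even spacing, in C57 (green) and C3H (purple), with high-fat diet dark and chow pale. The C57 and C3H points of feature 10334 do not overlap at any week, and those of features 4058 and 11166 do not overlap between the diets in C3H at week 4.

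Change with time was read on chow, week 40 against week 0, with 3 arrays on each side. In C57 limma called 0 of the 200 features, where 0.0614% of all features were called, and in C3H 0, where 0.0992% were called. At an unadjusted p under 0.05 there were 10 members (5%) in C57, where 2.74% of all features were found, and 16 (8%) in C3H, where 4.52% were. With runs as a random block limma called 3 in C57 and 4 in C3H, where 0.316% and 0.826% of all features were called. They were features 8837, 21026 and 22451, all lower at week 40, in C57. In C3H they were features 2787, 10470 and 17102, higher at week 40, and feature 22451, lower. Features 2787, 17102 and 21026 are named here after their values were seen. The median SE of a difference was 0.137. The median difference was -0.0067 in C57, against -0.0047 over all features. In C3H it was 0.0918, with 161 of the 200 differences above 0, against -0.0006 over all features. At one spread the medians were 0.120 in C57 and 0.0279 in C3H, so the C57 median turned its sign with the scaling and the C3H median was smaller. After quantile normalization they were 0.0037 and 0.0277. The 3 arrays of week 40 lay apart from the 3 of week 0 in 24 of the 200 features (12%) in C57, where 6.85% of the features measured on all arrays did, and in 47 (23.5%) in C3H, where 9.28% did. The members moved together from array to array, so these counts do not stand for that many separate changes.

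Feature 22451 had the largest share of its spread with week, 51.8%, and is named after its values were seen. On chow in C57 its arrays read 0.728, 0.899 and 0.737 at week 40, against 1.39, 1.33 and 1.23 at week 0. In C3H they read 0.837, 0.793 and 0.784 at week 40, against 1.36, 1.33 and 1.20 at week 0. The weeks did not overlap in either strain. The differences were -0.525 and -0.490 (SE 0.137 each), with limma adjusted p-values of 0.367 and 0.286, so neither was called. With runs as a random block both were, with limma adjusted p-values of 0.00892 and 0.0121.

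Any difference among the 18 groups was asked with one F test per feature. It called 16 of the 200 features, or 8%, where 4.5% of all features were called by limma. Over the 6 differences of strain, diet and time, 36 of the 200 features (18%) were called in at least 1, where 14.1% of all features were, and 164 in none. Without C57 high-fat replicate 3 at week 40 the F test called 26, where 5.07% of all features were called.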

How the data were processed

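The deposited table holds one log ratio per feature and array, named here as log10 from its cap; the labels give the channels, and the authors' image analysis, background correction, dye assignment and normalization were not given in the sources used here. Exact zeros were set to not measured. The median of the 20694 features with a value on all 54 arrays was subtracted from each array, and features with at least 2 measured values in every group were tested, which kept 21179 and left out 267. Sums of squares of each feature were split by strain, week, diet and replicate number.

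A linear model of 18 group means was fitted in R 4.3.3 using limma 3.58.1 (two-sided moderated tests from lmFit, contrasts.fit and eBayes). Benjamini-Hochberg adjustment ran over the 21179 features of each comparison, and features with an adjusted p under 0.05 count as called. Descriptions used Python 3.11.15 with pandas 2.3.3. The procedure was tested on simulated data with independent noise per array.

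The members and the comparisons were chosen with earlier results of these data known. Features named are the 10 highest, the 3 steadiest and 3 least steady, the 3 on either side of the limit, up to 4 called members per direction and comparison, any with a called interaction, and the 3 most like the highest. The planned log2 conversion was not made, since the base is not given. Replicate numbers were checked as a pairing by the arrays' deviations from the group means, and the check asked every same-numbered pair for an r above 0.1. This was not met: r of same-numbered arrays ran from -0.462 to 0.905, and 381 of 459 pairs were above 0.1. Same-numbered arrays were still more alike, with a median r of 0.369. Arrays of different numbers had a median of -0.242, and 206 of 918 pairs were above 0.1. Alternatives were quantile normalization, one spread for all arrays, no centring, zeros kept, features measured on all arrays, the replicate block, numbers 1 and 2 alone, runs of strain, diet and number as a random block, the arrays of a contrast alone, and each array left out. Leaving out the 4 arrays with an SD over features under 0.2 was added after seeing the data.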

Additional observations from a re-analysis of the deposited data

Results flagged for a closer look

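Feature 8289, whose mean over 54 arrays was 0.815, changed in opposite directions with time on chow in the 2 strains. In C57 its arrays read 0.583, 0.789 and 0.784 at week 40, against 0.877, 0.800 and 0.867 at week 0, a difference of -0.129. In C3H they read 0.898, 0.957 and 0.914 at week 40, against 0.836, 0.881 and 0.803 at week 0, a difference of 0.0829. The weeks did not overlap in either strain, as was so for 24 of the 200 features in C57 and 47 in C3H, which is 12% and 23.5%, where 6.85% and 9.28% of all features did not overlap. The difference between the strains was not tested, and neither change was called by limma.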

How the results depend on the processing

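Of the members, 180 to 200 were chosen again under each of 7 alternatives, and 198 to 200 with any 1 array left out. These choices used the same arrays or a part of them, so a high overlap largely follows from the rule and is a description. The median SD of the members, 0.174, was 0.129 after quantile normalization, 0.116 in numbers 1 and 2 alone and 0.146 in C3H alone, and 0.160 to 0.176 with 1 array left out. For the order strain on chow, strain on high-fat diet, diet in C3H, time in C57, time in C3H and any group, the calls were 18, 27, 3, 0, 0 and 16. With the replicate block they were 41, 79, 12, 3, 4 and 67, where 16.4%, 25.7%, 4.08%, 0.364%, 0.722% and 23.9% of all features were called. The arrays numbered 1 and 2 alone gave 34, 50, 1, 1, 2 and 80, beside 9.47%, 11.9%, 0.0755%, 0.137%, 0.231% and 9.22% of all features. With runs of strain, diet and number as a random block (within-run correlation 0.461) they were 4, 6, 0, 3, 4 and 19, beside 1.3%, 1.81%, 0%, 0.316%, 0.826% and 4.53%. Quantile normalization gave 35 for strain on chow, 1 for diet in C57, 3 for time in C57, 1 for time in C3H and 36 for any group, beside 7.75%, 0.198%, 0.118%, 0.142% and 4.88% of all features. One spread for all arrays gave 30 for strain on chow and 1 for diet in C3H (7.64% and 0.222% of all), and leaving out the arrays of small spread gave 1 interaction (0.0989% of all). With 1 array left out the calls were 16 to 21 for strain on chow, 22 to 36 for strain on high-fat diet, 3 to 4 for diet in C3H, 14 to 26 for any group and 0 for diet in C57, time and interaction. The highest, 26, came without C57 high-fat replicate 3 at week 40, beside 5.07% of all features. No alternative reversed a named difference, and the cause of the moved counts was not tested. The embryo reference, capped values and ratios without intensities limit what a level shows, and the time comparison, with 3 arrays on each side, had a median SE of 0.137.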
